A study of Mus musculus with 12 samples.

Results

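The retina of PBS-treated mice 2 days after optic nerve crush (ONC) was described from its 3 libraries, which are 3 of the 12 samples of the series and are called PBS 1, PBS 2 and PBS 3 here. They were taken by their label alone and not by any measured value. Wild-type C57BL/6J mice, labelled as 8 to 10 weeks old, had the left optic nerve crushed with forceps for 5 s behind the eye, received an intravitreal injection of PBS as the vehicle control, and the whole injured retina was collected 2 days later for total RNA sequencing. The other 9 samples received fluvastatin, matrix-bound nanovesicles or both, and are not described here. All 12 samples carry the crush label, so a level given below is a level in the injured retina and not a change from the intact retina. The labels do not say whether a sample is 1 animal or a pool, and with 1 group of 3 libraries the values are descriptions with their spread and no test.

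The retina is a layered part of the central nervous system in which rods and cones detect light, bipolar, horizontal and amacrine cells process the signal, and retinal ganglion cells (RGCs) send it to the brain through the optic nerve. Müller glia span all layers, while astrocytes, microglia and blood vessels support the tissue. Crushing the nerve cuts the RGC axons, and the damaged neurons are known to start a stress response through the kinase DLK and transcription factors such as Jun and Atf3, while Müller glia and astrocytes become reactive.

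The deposited counts on genes came to 30992040 in PBS 1, 29454817 in PBS 2 and 26325065 in PBS 3. A floor of 3 counts therefore corresponded to 0.0968, 0.102 and 0.114 CPM, the counts scaled to the total of a library. Of 25655 genes in the table, 16729 (65.2%) had a count in all 3 libraries and 13664 (53.3%) were at 1 CPM or more in all 3, which is called expressed below. The expressed genes had a median of 27.6 CPM, 9966 genes reached 10 CPM in every library, 2253 reached 100 CPM and 60 reached 1000 CPM. CPM depends on the length of a gene as well as on its abundance, so levels of different genes are compared only as TPM, which divides the counts by the exon length before scaling to a common total.

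The 10 most abundant genes together held 7.78% ± 0.115 (SD, n = 3) of the counts, the top 100 held 19.4% and the top 1000 held 49.2%. Genes of the photoreceptor signal and outer segment were prominent among them. Gnat1 (rod transducin alpha) was at 8241 ± 461 CPM, Gnb1 (its beta partner, also used in other cells) at 6555 ± 283, and Rbp3 (the retinoid carrier between photoreceptors and pigment epithelium) at 6274 ± 186. Prph2, which shapes the outer segment discs, was at 4063 ± 174 CPM, Rp1 of the photoreceptor axoneme at 3659 ± 274, and Sag (rod arrestin) at 3020 ± 71.3. The mitochondrial genes mt-Co1, mt-Co3 and mt-Cytb were also among the 10.

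**Figure D1:**
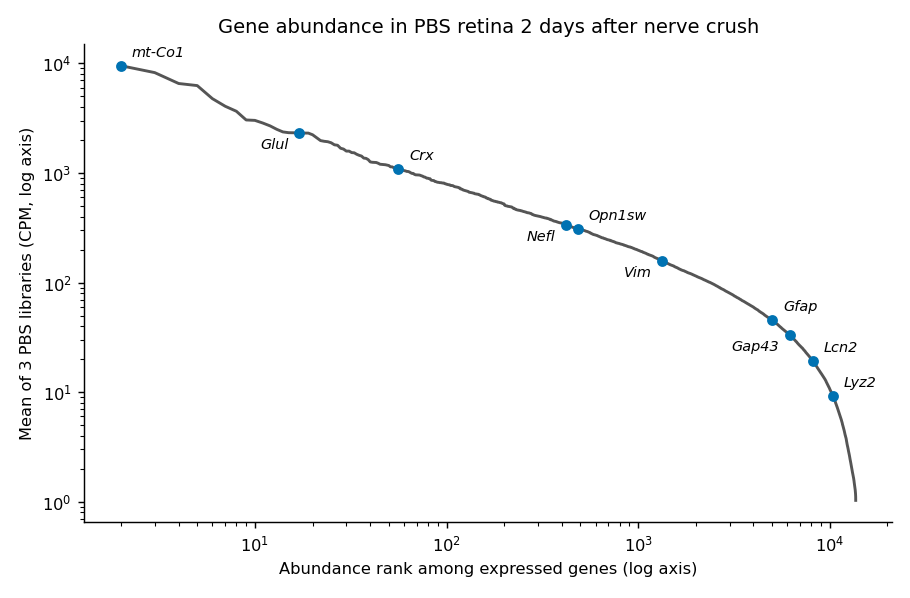
Mean level of the 3 PBS libraries in CPM (y axis, log) against the abundance rank of the 13664 expressed genes (x axis, log), drawn from rank 2 on, with named genes as points. The curve starts with mt-Co1 at 9526 CPM, and the glial injury genes Gfap and Lcn2 lie at 45 and 19.3 CPM.

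The 20 most abundant genes also held Pde6a (a subunit of the rod phosphodiesterase), mt-Co2, Map1b (a microtubule-binding protein), Glul (glutamine synthetase of Müller glia), mt-Atp6, Slc6a6 (the taurine transporter) and mt-Nd1. Their means lay between 2232 and 2855 CPM. Of these, Glul had the widest spread, with 2579 CPM in PBS 1, 2491 in PBS 2 and 1899 in PBS 3. Glul overlaps Teddm2 on the other strand, and their reads cannot be told apart without a strand setting, which is not given in the sources used here. The same limit holds for Opn1sw, Prkca, Pax6, Nefl, Cnp, P2ry12, Csf1r, Cryab, Map3k12, Stat3, Ucn, Fgf21, Hspa5, Fgf2, Cebpd, Junb, Rtn4, Irf7, Eps8l1, Srpr, Agpat1, Igf1r and Cxcl10 below, and Lenep, Tuba1a, Bax, Bcl2l11 and Irf9 overlap a neighbour on the same strand.

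Per length the order changed. The mitochondrial genome held 3.06% ± 0.107 of the counts but 18.1% ± 0.451 of TPM, its genes being short. The highest TPM belonged to mt-Co1 with 34414 ± 1409, followed by mt-Co3 with 33936 ± 978, and these differed by less than their spread. Gnat1 was the seventh with 15187 ± 868 TPM. The first 10 also held mt-Co2, mt-Atp6, mt-Nd3, mt-Cytb, mt-Nd1 and mt-Nd4, with means from 7812 to 21951 TPM. mt-Co3, mt-Atp6 and mt-Nd4 overlap a neighbour on the same strand, so their shares are uncertain.

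The labelled tissue was then checked against lists of cell type genes. All 15 rod genes, all 11 cone genes and all 18 genes shared by rods and cones were expressed, as were all 16 bipolar, 18 amacrine, 5 horizontal, 18 RGC and 16 Müller glia genes, beside 53.3% of all genes in the table. The rod list held 5.28% of the counts in PBS 1 (95% Wilson interval 5.27 to 5.29%), 5.43% in PBS 2 (5.42 to 5.44%) and 5.03% in PBS 3 (5.02 to 5.04%). Without molecular identifiers such intervals and floors speak of counting error alone. The shared photoreceptor genes held 2.81% ± 0.0881 (SD, n = 3), Müller glia 0.538% ± 0.0267, bipolar cells 0.207% ± 0.016, amacrine cells 0.148% ± 0.00705, cones 0.103% ± 0.00464, RGCs 0.0826% ± 0.00878 and horizontal cells 0.0109% ± 0.000591. A share depends on the number and length of the listed genes, so it orders lists and not numbers of cells, and in whole tissue fewer cells of a type and less RNA per cell cannot be told apart.

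**Figure D2:**
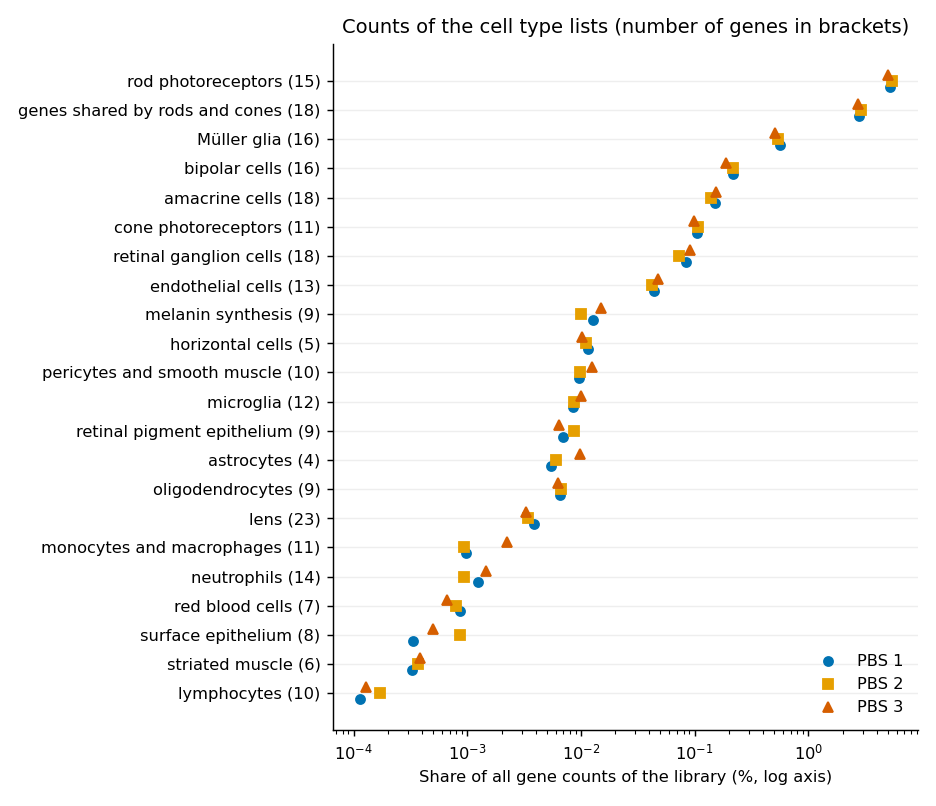
Share of the gene counts of each library (x axis, %, log) held by each of 22 cell type lists (y axis, number of genes in brackets), with 1 point per PBS library. Rod genes lie near 5% and lymphocyte genes between 0.000113 and 0.00017%. The lists of monocytes and macrophages, astrocytes and surface epithelium show the widest spread between libraries. In the astrocyte list, Gfap, which is also a reactive glia gene, holds 923, 1084 and 1812 of 1682, 1772 and 2599 counts.

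Among the rod genes, the transcription factor Nrl, which sets rod fate, stood at 1053, 1100 and 1001 CPM in PBS 1, 2 and 3. All 15 rod genes were highest in PBS 2, against 35.1% of the 13919 genes with a mean of at least 1 CPM, and 14 of the 15 were lowest in PBS 3, against 38.4%. The differences were small, with a median ratio of the highest to the lowest library of 1.12 over the rod genes and 1.1 over all genes. Cone genes ranged from 14.6 to 679 TPM, and the lowest of the rod genes had 339 TPM. Opn1sw, the short-wavelength cone opsin, had 328, 310 and 295 CPM, and Opn1mw, the middle-wavelength opsin, had 83.2, 91.1 and 84.3 CPM.

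Bipolar cells relay the photoreceptor signal. Their leading gene by counts was Trpm1, the cation channel of ON bipolar cells, with 566, 570 and 508 CPM, followed by Prkca with 570, 579 and 476 CPM. Of the 16 bipolar genes, 15 were lowest in PBS 3 and 13 were highest in PBS 2, against 38.4% and 35.1% of all genes. Amacrine genes had another order, with 15 of 18 lowest in PBS 2, against 37% of all genes. Pax6, a transcription factor of amacrine cells and RGCs, had 282, 269 and 287 CPM, and Gad1, which makes the transmitter GABA, had 249, 240 and 260 CPM.

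RGCs are the injured neurons and a small part of the retina, and their genes were still well above the floor 2 days after the crush. Nefl, the light neurofilament, had 345 CPM in PBS 1, 307 in PBS 2 and 361 in PBS 3. Thy1, a surface protein long used as an RGC marker, had 100, 90.3 and 109 CPM, and Slc17a6, the vesicular glutamate transporter of RGCs, had 96.9, 79.5 and 112 CPM. PBS 2 was the lowest library for all of these. Over the list, 16 of 18 genes were lowest in PBS 2, against 37% of all genes, and 14 of 18 were highest in PBS 3, against 37.8%. The median ratio of highest to lowest was 1.26. The RGC share was 0.0838%, 0.0733% and 0.0907% in PBS 1, 2 and 3. Of the RGC transcription factors, which were chosen for naming after their values were seen, Pou4f1 had 16.4, 13.3 and 20.2 CPM and Pou4f2 had 6.18, 4.1 and 4.9 CPM, so Pou4f2 did not follow the order of the list.

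Müller glia genes differed by at most 1.24 times between libraries apart from Glul, which was 1.36 times higher in PBS 1 than in PBS 3. Clu (clusterin) had 716, 693 and 817 CPM and Dkk3 had 770, 733 and 804 CPM, so both were highest in PBS 3. Astrocytes are few in the mouse retina, and Pax2, their transcription factor, had 21, 36 and 25 counts. Oligodendrocyte genes were split. Mbp had 38.7, 39.8 and 35.7 CPM and Cnp 19, 18.4 and 19.4 CPM, but Olig2, which defines the lineage, had no count, Olig1 had 1 count in all and Mobp had 2.

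Immune cell genes were low. The microglia list, the resident macrophages of the retina, held 0.00908% ± 0.000776 of the counts. Of its 12 genes, 11 were expressed, beside 53.3% of all genes in the table. Csf1r, the receptor that microglia need to survive, had 20.2, 20.8 and 22.7 CPM. P2ry12, a receptor of resting microglia, had 5.6, 5.84 and 5.54 CPM. Both genes differed by at most 1.12 times between libraries, but the list as a whole spread more. Over its 11 genes with a mean of at least 1 CPM the median ratio was 1.42, beside 1.1 over all genes. Of these 11, 2 differed at least 2-fold, against 1.31% of all genes. Cx3cr1, the receptor for the neuronal chemokine Cx3cl1, had 7.28, 8.13 and 11.3 CPM.

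Of the genes of cells that enter from blood, few were expressed, beside 53.3% of all genes in the table. In the list of monocytes and macrophages this was 1 of 11 genes, Lyz2 (lysozyme), with 6.27, 6.32 and 15 CPM. Ccr2, the receptor that draws monocytes out of blood, had 21, 8 and 40 counts, and Ly6c2, a marker of inflammatory monocytes, had 2, 0 and 1. In the neutrophil list 1 of 14 genes was expressed, the protease Mmp9, with 9.31, 7.17 and 11.3 CPM, and Mmp9 is made by other cells as well. Ly6g, Mpo and Elane had no count in any library, while S100a8 and S100a9 had 7, 6 and 12 counts and 9, 4 and 5 counts. A count of 0 allows up to 3 counts, or 0.0968 to 0.114 CPM here. None of 10 lymphocyte genes was expressed, and the T cell receptor genes Cd3d, Cd3e and Cd3g had at most 2 counts in a library.

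Tissue next to the retina left small traces. The retinal pigment epithelium list held 0.00736% ± 0.00118, with Rpe65, the isomerase of the visual cycle, at 3.91, 6.25 and 3.73 CPM. Of 23 lens genes, 3 were expressed, beside 53.3% of all genes. These were Cryab, Lenep and Bfsp2, and Cryab is also made in neural tissue. Keratin 12 (Krt12) of the cornea had 28, 79 and 42 counts.

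The injury genes were read from 14 lists with 233 genes, of which 232 were in the table. Of these, 191 were expressed, beside 53.3% of all genes in the table, and 8 were at 3 counts or fewer in every library. All 20 measured genes of DLK signalling and the injury transcription factors were expressed, and Map3k12, which encodes DLK, had 87.2, 93 and 90.2 CPM, while its relative Map3k13 had 98.6, 102 and 97.7 CPM. The kinase genes downstream, Mapk8, Mapk9 and Mapk10 (the JNK family), had means of 108 ± 5.74, 123 ± 1.2 and 114 ± 6.24 CPM. Some transcription factors of this pathway spread more between libraries than these kinases. Jun had 74.4, 64.1 and 92.5 CPM, Atf3 had 17.3, 17.4 and 29.8 CPM, and Sox11, which is tied to axon growth in development, had 56.1, 53.9 and 79.3 CPM. PBS 3 was the highest library for all 3.

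Genes that growing axons use were expressed at a wide range of levels, with 18 of 21 regeneration-associated genes expressed. Tuba1a, an embryonic-type tubulin, led them with 1415 TPM, and Basp1 had 295 and Gap43 97.2 TPM, these last being membrane proteins of the growth cone. Gap43 had 32.4, 30.8 and 36 CPM in PBS 1, 2 and 3. Sprr1a, a protein that is absent from most intact neurons and rises in crushed ones, had 5.34, 8.98 and 8.29 CPM, and Gal (galanin) had 28, 24 and 48 counts. Fgf21 and Ucn were at the floor, with at most 2 and 3 counts. Of the 19 genes with a mean of at least 1 CPM, 16 were highest in PBS 3, against 37.8% of all genes.

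Genes known to hold axon growth back were expressed, with 16 of 17 above the minimum. Rtn4, which encodes the myelin inhibitor Nogo, had 654, 630 and 647 CPM. Ptprs, the receptor for the inhibitory chondroitin sulphates, had 343, 336 and 375 CPM, and the kinase Rock2, which collapses growth cones, had 206, 205 and 236 CPM. The Nogo receptor gene Rtn4r had 2.23, 1.57 and 2.37 CPM, and per length it was at 5.02 TPM beside 457 TPM for Rtn4. Apart from Socs3 the genes at 1 CPM or more differed by at most 1.55 times between libraries.

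Most integrated stress response and apoptosis genes differed little between libraries, with median ratios of highest to lowest of 1.1 and 1.13, beside 1.1 over all genes. All 19 measured stress response genes were expressed, and their share was 0.114%, 0.114% and 0.117%. Atf4, the main transcription factor of this response, had 179, 178 and 185 CPM, its target Chac1 had 14.3, 13 and 14.6 CPM, and Hspa5, the chaperone of the endoplasmic reticulum, had 227, 224 and 215 CPM. Nupr1, with 6.34, 3.76 and 8.37 CPM, and Atf3, given above, differed most, by 2.23 and 1.72 times. Of 17 apoptosis genes, 16 were expressed. Bax, the death effector, had 12.9, 13.6 and 14.7 CPM. The BH3 gene Bcl2l11 had 33.6, 34.8 and 34.9 CPM, Hrk 13, 13.2 and 12.7 CPM and Bbc3 3.82, 4.03 and 5.54 CPM. Pmaip1 was below 1 CPM, with 13, 11 and 15 counts.

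Reactive glia genes were all expressed but 1, and here PBS 3 stood apart from the other libraries. All 22 genes of the list were highest in PBS 3, against 37.8% of the 13919 genes with a mean of at least 1 CPM. The list held 0.116% of the counts in PBS 1 (95% Wilson interval 0.115 to 0.117%), 0.11% in PBS 2 (0.109 to 0.111%) and 0.186% in PBS 3 (0.184 to 0.188%). In 13 of the 22 genes the highest library was at least 2-fold above the lowest, against 1.31% of all genes. The median log2 ratio to the gene's own mean was -0.34 in PBS 1, -0.50 in PBS 2 and 0.60 in PBS 3, beside 0.00 in every library over all genes.

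Gfap, the intermediate filament that marks reactive Müller glia and astrocytes, had 29.9 CPM in PBS 1, 37 in PBS 2 and 68.3 in PBS 3. Lcn2, a secreted iron-binding protein of reactive glia, had 14.2, 6.9 and 36.9 CPM, and Serpina3n, a secreted protease inhibitor, had 36, 26.3 and 64.1 CPM. In each of these PBS 3 was well above both other libraries. Endothelin 2 (Edn2), which photoreceptors release under stress, had 8.73, 9.66 and 23.8 CPM, and Fgf2, a growth factor that protects photoreceptors, had 69.7, 74.3 and 149 CPM. Osmr, the oncostatin M receptor, had 14.8, 14.7 and 34.3 CPM, its partner gp130 (Il6st) had 195, 191 and 243 CPM, and Stat3, a transcription factor that this receptor activates, had 87, 83.9 and 154 CPM. Socs3, a feedback inhibitor of cytokine receptors, had 7.12, 6.28 and 17 CPM. The transcription factor gene Cebpd had 11.3, 9.94 and 41 CPM. Vim, the filament that Müller glia also carry at rest, differed least, with 154, 144 and 176 CPM.

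**Figure D3:**
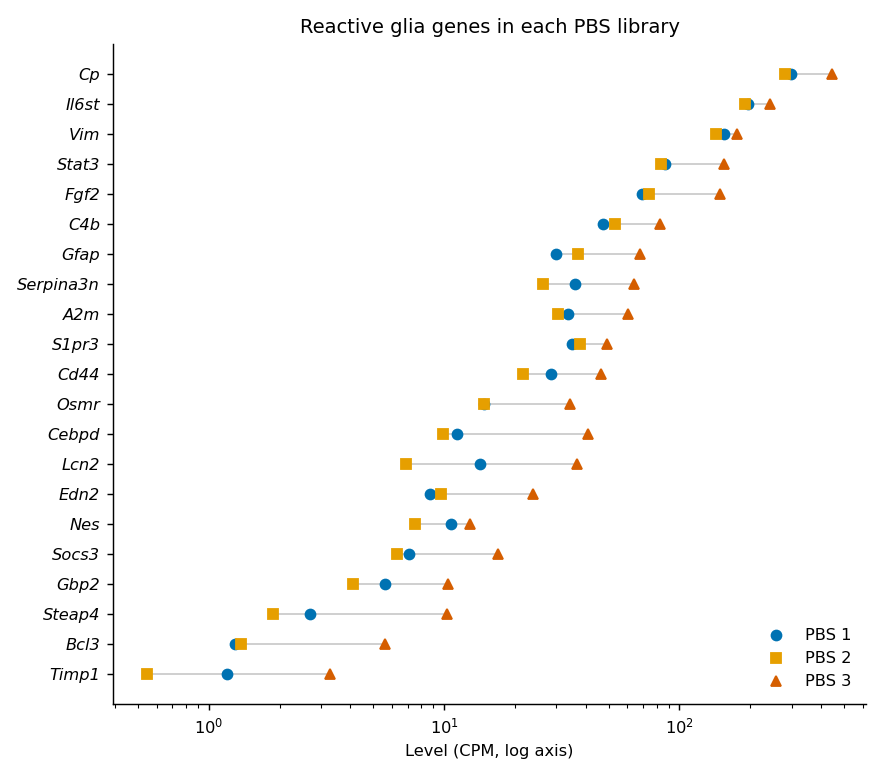
Level in CPM (x axis, log) of reactive glia genes (y axis) in each PBS library, with a grey line from the lowest to the highest library. PBS 3 is the highest library for every gene drawn, and the distance to the lowest library runs from 1.23 times for Vim to 6 times for Timp1.

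The same library was the highest for the interferon response and for antigen presentation on MHC class I. All 18 interferon genes with a mean of at least 1 CPM, of 20 listed, were highest in PBS 3, against 37.8% of all genes. Of these 18, 10 differed at least 2-fold, against 1.31% of all genes. Irf7, which amplifies the response, had 9.12, 8.64 and 21.3 CPM. Irf9, part of a factor that interferon receptors activate, had 14.8, 14.3 and 31 CPM. Ifit3, an antiviral effector, had 17, 15.5 and 27.1 CPM, while Ifit2 was nearly even with 19.1, 16.4 and 20.5 CPM. Mx1 and Oas1a stayed under 1 CPM in every library, with at most 7 and 18 counts. All 9 MHC class I genes were highest in PBS 3 and lowest in PBS 2, against 37.8% and 37% of all genes. H2-D1, a class I heavy chain, had 46.3, 39.2 and 75 CPM, and Nlrc5, the transactivator of class I genes, had 2.39, 2.29 and 12.4 CPM.

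Promoters of the interferon genes were read because these genes moved together between libraries. The stretches are from RefSeq promoter windows on GRCm38.p6, an earlier build than that of the counts, and 14 of the 20 interferon genes matched, with 18 windows. A pair of GAAA with 2 bases of any kind between them, the core of the element that responds to interferon, was searched on both strands in the 250 bases before each start, and overlapping matches were kept. It was found in 8 of 18 windows (44.4%), against 2.98% of all 32851 windows. The matching genes were Isg15, Ifit1, Ifit3, Stat2, Oas1a, Rsad2, Bst2 and Gbp3. The reactive glia genes held it in 1 of 19 windows (5.26%), that of Gbp2. A match is a description of these letters and was not tested as a binding site. The listed genes were chosen as interferon response genes, so the choice itself favours a high share of this element. Its part in the difference between the libraries was not tested. Shown are 4 stretches with matches in capitals, chosen because the means of their genes range from 1.29 to 42.2 CPM.
Isg15 (chr4:156200845-156200926, minus strand): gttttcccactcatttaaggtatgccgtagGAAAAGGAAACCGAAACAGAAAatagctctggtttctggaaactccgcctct
Ifit1 (chr19:34640755-34640843, plus strand): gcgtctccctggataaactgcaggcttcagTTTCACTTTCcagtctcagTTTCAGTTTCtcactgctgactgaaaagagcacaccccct
Ifit3 (chr19:34583343-34583446, plus strand): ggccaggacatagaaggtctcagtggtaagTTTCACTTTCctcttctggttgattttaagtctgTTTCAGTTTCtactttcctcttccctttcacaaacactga
Stat2 (chr10:128270248-128270315, plus strand): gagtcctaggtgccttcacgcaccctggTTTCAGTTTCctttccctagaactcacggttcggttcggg

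The CPM of these 4 genes in PBS 1, 2 and 3 were 1.2, 0.615 and 2.07 for Isg15, 8.02, 6.66 and 12.2 for Ifit1, and 37.1, 36.2 and 53.2 for Stat2, and those of Ifit3 are given above. All 4 were highest in PBS 3. In the same way TAATCC on either strand, the core letters bound by the photoreceptor factor CRX, was found in 4 of 11 windows of rod genes (36.4%) and 6 of 15 windows of genes shared by rods and cones (40%), but in 1 of 13 windows of cone genes (7.69%), against 6.25% of all windows. The interferon genes held it in 3 of 18 windows (16.7%). A further motif, TTC and GAA with 3 bases between them, was in 2 of 19 reactive glia windows (10.5%), against 7.02% of all windows. It was in 4 of 18 interferon (22.2%), 1 of 8 MHC class I (12.5%) and 2 of 11 rod windows (18.2%). Cone genes and genes shared by rods and cones held it in 0 windows. The stretches of Rbp3 and of Crx itself, both among the abundant photoreceptor genes, are shown with the TAATCC matches of either strand in capitals.
Rbp3 (chr14:33953904-33953969, plus strand): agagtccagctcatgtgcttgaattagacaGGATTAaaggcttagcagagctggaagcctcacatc
Crx (chr7:15879956-15880079, minus strand): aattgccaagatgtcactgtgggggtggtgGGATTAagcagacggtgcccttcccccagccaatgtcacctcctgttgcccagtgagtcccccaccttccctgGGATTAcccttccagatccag

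Rbp3 and Crx had 6613 and 1921 TPM. Crx was highest in PBS 2, like the rod genes, with 1099, 1153 and 1011 CPM, whereas Rbp3 was highest in PBS 3 with 6121, 6219 and 6481 CPM.

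Neurons and glia switch on immediate early genes within minutes of a stimulus. Of the 16 with a mean of at least 1 CPM, 15 were also highest in PBS 3, against 37.8% of all genes. Egr1 had 56.2, 62.6 and 116 CPM, Fos had 24, 24.4 and 49.1 CPM and Junb had 18, 17 and 39 CPM. PBS 1 and PBS 2 were close to each other in all 3 genes. Ier3 was the exception, with 37, 36 and 34.9 CPM.

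Complement was led by C4b, with 47.2, 53.3 and 82.5 CPM, and 16 of 19 genes were expressed. C3, the central component, had a different pattern, with 24 CPM in PBS 1, 9.46 in PBS 2 and 24.6 in PBS 3, so that PBS 2 was the library apart. The C1q genes of microglia, C1qa, C1qb and C1qc, had means of 6.98 ± 1.06, 7.54 ± 1.26 and 9.9 ± 1.92 CPM. Of the 17 genes at 1 CPM or more, 14 were highest in PBS 3 and 11 were lowest in PBS 2, against 37.8% and 37% of all genes. Cfd, the protease that starts the alternative pathway, had 1 count in all libraries together.

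**Figure D4:**
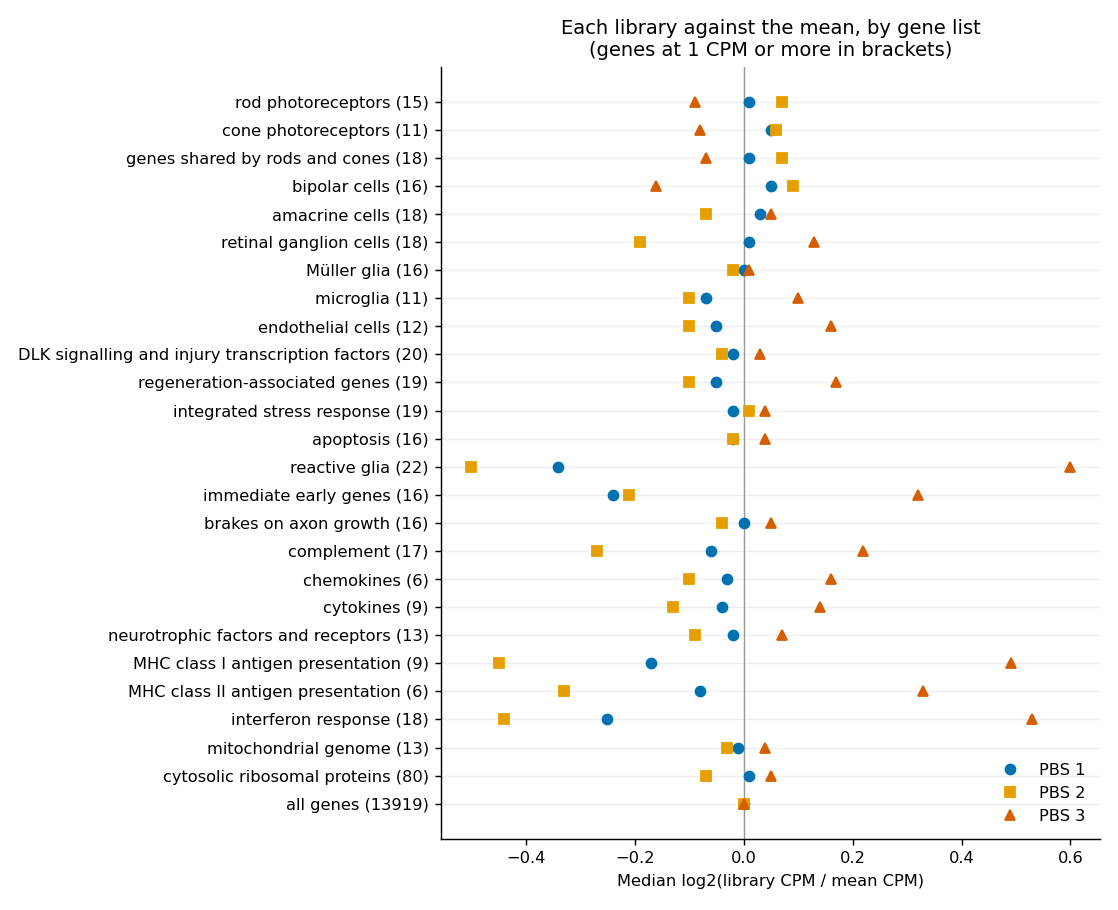
Median over the genes of a list of log2(library CPM divided by the mean CPM of the 3 libraries) on the x axis, with 1 point per PBS library and the number of genes in brackets. Reactive glia, interferon and MHC class I genes lie at 0.60, 0.53 and 0.49 in PBS 3, bipolar genes at -0.16, and the median of all 13919 genes at 0.

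Over all injury lists, 152 of 199 genes with a mean of at least 1 CPM were highest in PBS 3 (37.8% of all genes) and 39 of 199 differed at least 2-fold between libraries (1.31% of all genes). Several other values moved with PBS 3. It had the fewest counts of the 3 libraries. The mitochondrial share was 3.04%, 2.96% and 3.17% and the share of ribosomal protein genes 0.788%, 0.75% and 0.822% in PBS 1, 2 and 3. The list of monocytes and macrophages held 0.000971%, 0.00093% and 0.00223%, its 3 genes with a mean of at least 1 CPM (Lyz2, Mrc1 and F13a1) were all highest in PBS 3, and 9 of 12 endothelial and 7 of 11 microglial genes were also highest there. The neutrophil list held 0.00125%, 0.000944% and 0.00146%, and so was also highest in PBS 3, most of its counts being of Mmp9. Ly6g, Mpo and Elane were at 0 in every library, while S100a8 and S100a9 had counts in every library. The part of these values in the higher injury genes of PBS 3 was not tested.

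The spread between libraries was then taken over all genes, those of the injury lists included. The biological coefficient of variation, the spread between libraries beyond counting error as edgeR estimates it, was 6.13% over 15124 genes. It was 3.74% between PBS 1 and PBS 2 alone, 5.89% between PBS 1 and PBS 3 and 8.15% between PBS 2 and PBS 3. The median coefficient of variation (CV) over the 10181 genes with a mean of at least 10 CPM was 4.19%, where counting error alone would give 2.8%. PBS 3 was the highest library for 3682 of these genes and the lowest for 4179, together 77.2%. PBS 2 was close to this, being the highest for 3773 and the lowest for 3707. PBS 1 was the highest for 2726 and the lowest for 2295. The median CV was 11.1% at 1 to 10 CPM, 4.53% at 10 to 100 CPM and 3.21% at 100 to 1000 CPM, and 3.88% over the 65 genes above 1000 CPM.

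Of the 13919 genes with a mean of at least 1 CPM, 183 (1.31%) differed at least 2-fold between the highest and the lowest library, and 124 of these were highest in PBS 3. Without PBS 3 the number was 48, and without PBS 2 it was 95. At 10 CPM or more the number was 27, of which 25 were highest in PBS 3 and 16 were on the injury lists. These 27 included, besides genes given above, Ifih1 of the interferon response, Cd44 of reactive glia and Eps8l1, an actin regulator, with 4.95, 7.2 and 22.9 CPM. The largest ratios belonged to genes with means of 1.01 to 2.76 CPM. Gm9803 led with 62.7, highest in PBS 1. Serpine3, 1700028K03Rik and Gm13304 followed with 38, 20.6 and 13.1, all highest in PBS 2. Then came Yy2 with 8.99, highest in PBS 3, Bpifa1 with 8.98 in PBS 1 and Gm49345 with 6.26 in PBS 2. Serpine3, 1700028K03Rik and Yy2 overlap a neighbour, so their counts are uncertain. Timp1, Steap4, Nlrc5 and Lcn2 were 6, 5.5, 5.4 and 5.34 times higher in PBS 3 than in PBS 2. Others had no count in 1 library and so no ratio, among them genes of low level that overlap a neighbour on the same strand, such as Gm45837 with 93, 0 and 112 counts, which overlaps Arap1 and Pde2a, and Derpc with 0, 150 and 30 counts, which overlaps Chtf8, so their counts are uncertain. Usp9y on the Y chromosome had 200, 1 and 0 counts, while 4 other Y-linked genes, Uty, Ddx3y, Kdm5d and Eif2s3y, differed by at most 1.14 times between libraries.

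**Figure D5:**
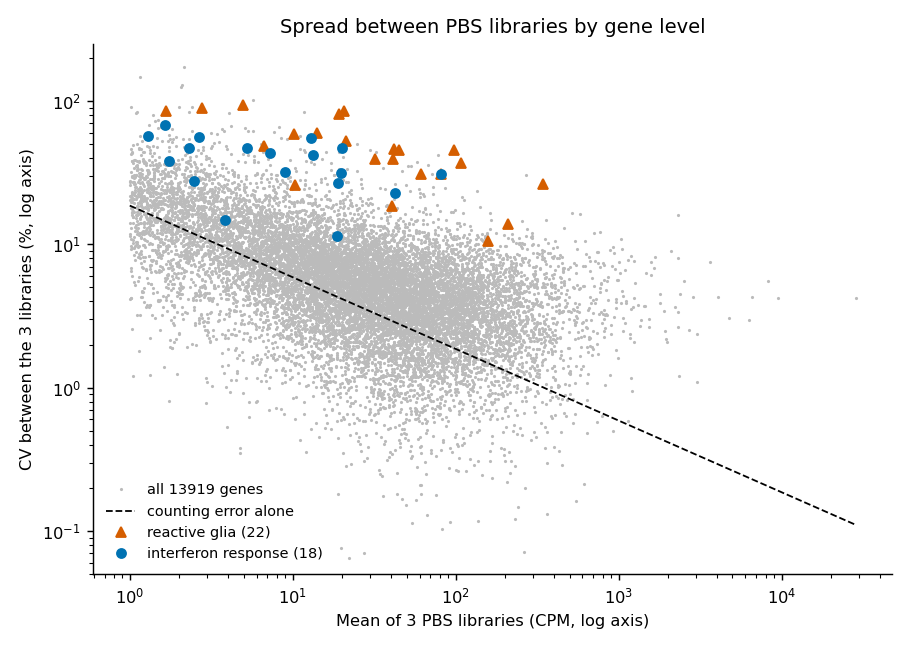
CV between the 3 PBS libraries (y axis, %, log) against the mean level (x axis, CPM, log) for 13919 genes, with reactive glia and interferon genes marked and the dashed line for counting error alone. All 22 reactive glia genes lie above the dashed line, while the whole cloud narrows to a median of 3.21% at 100 to 1000 CPM.

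At the other end, the 5 genes with the smallest CV were Srpr (a receptor for secreted protein synthesis), Agpat1 (lipid synthesis), Nol10 (ribosome assembly), Ing1 (a chromatin reader) and Oga, the enzyme that removes O-GlcNAc from proteins. Their CVs lay between 0.0372% and 0.0714%. They were picked for this from 10181 genes. Oga, for example, had 262, 261 and 262 CPM.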

How the data were processed

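Libraries were made from TRIzol-extracted total RNA with the TruSeq Total RNA kit and sequenced as 75-base paired-end reads. In CLC Genomics Workbench the authors mapped the reads on the mouse build GRCm39, and they deposited raw, not normalized counts per gene. The strand setting of the counting is not given in the sources used here. PBS columns that name their library stand in 2 of the deposited tables and were identical for all 25655 genes. The tables also hold fold changes, p-values, FDRs and group means of the authors' comparisons, which were not used. Of the count columns, 6 without a library name and 12 of other groups were not used.

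Counts were scaled to CPM with edgeR 4.0.16 (TMM) in R 4.3.3. The biological coefficient of variation was the square root of edgeR's common dispersion over genes with 10 counts in 2 libraries. TPM used exon lengths of GENCODE mouse release 39, found for 25493 genes. Python 3.11.15 and pandas 2.3.3 gave the levels, lists and figures. On simulated counts with a coefficient of 10% for 15134 to 15147 genes, 9.97 to 10% was recovered. The study calls its replicates biological, and the labels do not state whether each is 1 animal or a pool.

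The members and the 22 cell type and 14 injury lists were chosen with earlier results of these data known. Named are the 20 genes highest in CPM, the 10 highest per length, up to 6 per list and those at the floor, any injury gene, the 20 largest ratios and list members with a ratio of at least 2, and the 5 smallest CVs. Some genes that this rule takes are not reported here.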

Additional observations from a re-analysis of the deposited data

How the results depend on the processing

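No paired analysis was possible because the values describe 1 group and come from no test. With library size alone, DESeq2 1.42.0 size factors, other minimums, TPM or a library left out, the counts of detected genes (14800 to 18404), expressed genes (11507 to 14395) and expressed injury genes (147 to 206) stayed within 1.5 times. The median CV was 2.89 to 5.21%. The biological coefficient of variation was 3.74 to 8.15% with a library left out and 6.13 to 6.21% otherwise. The number of genes differing 2-fold was 48 to 133 with a library left out, 27 at a mean of at least 10 CPM and 1456 with 1 count in each library. The 10 most abundant genes held 7.04% without mitochondrial genes and 20.2% of TPM. The rod share was 6.22% of TPM and 2.38% without the most abundant gene of the list. For the other 21 cell type lists, 89 of 126 alternative values lay within 1 SD and 37 did not. Leaving out 1 of 3 libraries cannot move a mean by 1 SD, so those values are no check. All 37 came from TPM, from leaving out mitochondrial genes or from leaving out the most abundant gene of a list. Added after the data were seen were counts of genes highest in PBS 3, which were 22 (reactive glia) and 18 (interferon) in every alternative. Over all injury lists they were 152 to 160 with other scaling or TPM, 166 without PBS 1 and 163 without PBS 2, with no value without PBS 3. A gene highest in PBS 3 stays above the remaining library, so leaving out PBS 1 or PBS 2 is no check of these counts. The share of all genes highest in PBS 3 was not taken in those settings. The reactive glia share differed 1.69 times between the highest and lowest library, and 1.05 to 1.69 times with a library left out, 1.05 being the value without PBS 3. Depth limits genes near 3 counts, where a ratio between libraries is set by few reads.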

Other observations

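Signalling molecules that the account above leaves out ranged from high levels to no count. Of 17 chemokine genes 5 were expressed, beside 53.3% of all genes in the table. Cx3cl1, the membrane-bound chemokine of neurons, led with 82.5, 76.9 and 85.7 CPM in PBS 1, 2 and 3. Cxcl14 followed with 33.7, 34.2 and 39.2 CPM. Ccl2, which draws monocytes, had 9, 1 and 5 counts, Cxcl10 had 6, 8 and 15 counts and Cxcl9 had none. Of 17 cytokine genes 8 were expressed, again beside 53.3% of all genes. Tgfb2 had 118, 116 and 129 CPM, and Il33, an alarmin stored in the nuclei of Müller glia, had 65.4, 60.5 and 73.1 CPM. Csf1, the growth factor of microglia, had 9.35, 9.63 and 17.4 CPM, and Lif, which Müller glia release after injury, had 44, 28 and 58 counts. The acute cytokines were near the floor, with Il1b at 14, 4 and 22 counts, Tnf at 3, 4 and 2, Il6 at 1, 1 and 0 and Ifng at 0.

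Of 16 genes of neurotrophic factors and their receptors 13 were expressed, beside 53.3% of all genes in the table. Means over all 16 ran from 1.25 to 131 TPM. Igf1r had 450, 447 and 455 CPM, Lifr 211, 216 and 215 CPM and Ntrk2, the receptor of BDNF, 131, 120 and 134 CPM. Bdnf itself had 15.7, 13.2 and 14.9 CPM, while Gdnf and Ntf3 were under 1 CPM on average. Vegfa, the vessel growth factor, had 101, 102 and 99.7 CPM and, at 131 TPM, the highest level per length of the list. Of 7 MHC class II genes 6 were expressed at low level, beside 53.3% of all genes. Cd74, the invariant chain, had 4.2, 3.89 and 6.03 CPM.

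Traces of other tissue differed between libraries in more than 1 order. The 15 lens crystallins other than Cryab had 230 counts in PBS 1, 85 in PBS 2 and 31 in PBS 3. Of the 15, 13 were highest in PBS 1, against 27.1% of genes with a mean of at least 1 CPM. All 15 had lower means than that, so these calls rest on small counts. Cryaa alone had 70, 10 and 1 counts. All 8 genes of surface epithelium were highest in PBS 2, against 35.1% of genes with a mean of at least 1 CPM. Only 2 of the 8 reached that mean. The 8 genes together had 104, 254 and 130 counts in PBS 1, 2 and 3. Of 6 genes of odorant-binding and secreted proteins, chosen after their values were seen (Bpifa1, Obp2a, Obp1a, Obp1b, Mup4 and Gm14744), 5 were highest in PBS 1, against 27.1% of all genes. These 6 had 665, 160 and 269 counts together in PBS 1, 2 and 3. Melanin synthesis genes held 0.0128%, 0.0101% and 0.0151% of the counts, with Dct at 62, 44.4 and 73.4 CPM, so PBS 3 was highest and PBS 2 lowest, as in many injury genes. Red blood cell genes held 0.000771% ± 9.59e-05 (SD, n = 3), striated muscle genes 0.00036% ± 2.79e-05, and pericytes and smooth muscle 0.0106% ± 0.00156, both of the latter being highest in PBS 3. The genes of the nuclear respiratory chain held 0.52% ± 0.0113, with a median ratio between libraries of 1.07.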
